A study of Mus musculus with 6 samples.

Results

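The PI3K, AKT, mTOR and FoxO pathway was followed through 37 genes chosen by name: 14 subunits and adaptors of phosphoinositide 3-kinases (PI3K), 8 brakes, 12 kinases and effectors of the AKT-mTOR core, and 3 FoxO transcription factors. The choice was made with earlier results of these data known, so a share called among them is not independent evidence. Each gene was read from a probe set that names no other gene, and from the brightest over 6 arrays where there were several. In this way 36 of the 37 were measured, among 19938 genes in all. Rps6kb1, which encodes an S6 kinase that mTOR switches on, had no such probe set and was not measured.

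Class I PI3K enzymes turn the membrane lipid PIP2 into PIP3, which draws the kinases PDK1 and AKT to the membrane. AKT holds FoxO factors out of the nucleus and relieves the TSC brake on mTOR, the kinase that drives protein synthesis and cell growth. In pre-B cells this balance matters because FoxO1 sustains the recombinase genes and the interleukin 7 receptor, while cytokine, pre-B cell receptor and BCR-ABL1 signals all run through PI3K.

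BCR-ABL1, the fusion tyrosine kinase found in Philadelphia chromosome-positive leukaemia, had been used to transform the mouse pre-B cells. They came from mice aged 5 weeks of a 129SvEv by C57BL/6J cross and carried floxed Sox4 alleles (Sox4 fl/fl) in all 6 samples. The controls were 3 samples that received ERT2 alone, a ligand-binding domain of the oestrogen receptor, and the other 3 samples received Cre-ERT2, the recombinase fused to it; Sox4 is a transcription factor of B-cell progenitors. The series text places RNA extraction 24 h after 4-hydroxytamoxifen (4OHT) without naming the samples that received it. No sample joins Cre-ERT2 to unfloxed Sox4, so Sox4 loss and Cre activity cannot be told apart. The labels do not say whether the 3 samples of a group were separate cultures, so p-values measure the spread between samples, which may be technical. Arrays are numbered as in the labels and called control arrays (ERT2) and Cre arrays (Cre-ERT2) where single ones are meant.

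Median intensity per array lay between 273 and 279. Sox4 read 40.3% of its control mean in Cre-ERT2 cells. Of 11 measured pre-B markers 2 rose and 2 fell at the threshold given below, or 36.4% called against 8.1% of all genes. Dntt and Vpreb2 rose by 1.33 and 0.49 on the log2 scale, Rag1 fell by 0.89, and Enpep, the BP-1 antigen, fell by 4.84 to a mean below the median probe set in Cre-ERT2 cells. The other 10 were brighter than that median in both groups, Cd79a, Pax5 and Igll1 among them. The 3 CD3 chain genes were below that median in both groups. Among 8 T-cell markers 2 rose (25%, against the same 8.1%), Cd5 by 0.56 and Lat by 0.47, and the other 6 were not called. The summed intensity of the 8 went from between 1950 and 2057 to between 2327 and 2470. That rise lay in Cd5 (mean 385 in controls and 566 in Cre-ERT2 cells) and Lat (643 and 889). The CD3 chain genes and Cd8a were lower on average, and Cd4 and Cd28 slightly higher. Among 8 myeloid markers Lyz2 rose by 1.40 and Itgam fell by 0.49, again 25% called. The summed intensity of these 8 went from between 1817 and 1920 to between 2257 and 2442. That rise lay in Lyz2 (mean 351 in controls and 932 in Cre-ERT2 cells). Cd14 and Mpo were slightly higher on average and the rest lower. Of 16 NK-cell, erythroid and stromal markers 0 passed limma's test, and 1 had an unadjusted p under 0.05. The part of these markers in the results below was not tested, and in bulk RNA fewer cells of a type and less RNA per cell cannot be told apart.

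Differences are log2(intensity + 1) in Cre-ERT2 minus ERT2 cells, with limma's moderated standard error (SE), and a gene was called at a Benjamini-Hochberg adjusted p under 0.05 over all 35556 probe sets. Of the 36 measured genes 2 rose and 6 fell. Over all genes 4.38% rose and 3.72% fell, together 8.1%, while the 8 called genes were 22.2% of the pathway. The median difference was 0.01 for the pathway and 0.02 for all genes, values near each other. The groups did not overlap in 19 of the 36 genes, or 52.8%, against 28.3% of all genes. With control array 1 or Cre array 3 dropped 3 were lower, and with Cre array 2 or 3 dropped 1 was higher. Control array 3 was the lowest control for 29 of the 36 genes (80.6%), against 43.4% of all genes, and control array 2 was the highest for 23 (63.9%), against 44.1%. Among the Cre arrays, number 2 was the highest for 25 of the 36 (69.4%), against 34.9% of all genes. No share set against all genes, here or below, was matched for brightness. Of the 36 genes only Pik3cb and Pik3r3 were dimmer than the median probe set. Limma called more probe sets in each direction among the brighter ones alone than among all. The 8.1% may therefore be too low a background, and an excess over genes of like brightness was not tested.

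**Figure D1:**
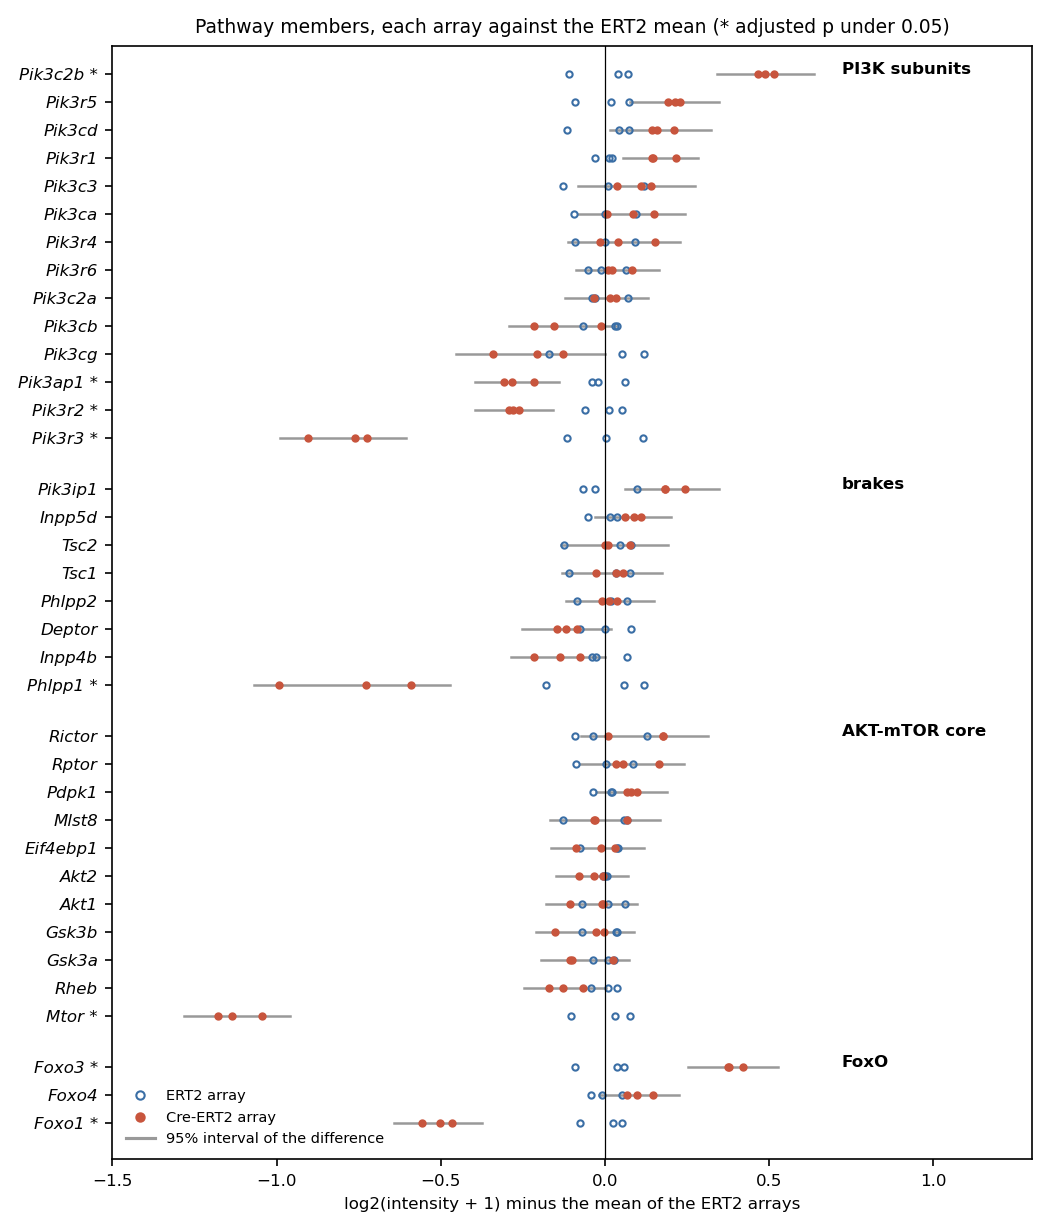
Difference of each array from the mean of the ERT2 arrays, in log2(intensity + 1) on the horizontal axis, for the 36 measured genes by role; open circles are ERT2 arrays, filled circles Cre-ERT2 arrays and grey lines 95% intervals of the group difference. The 8 genes marked with an asterisk passed adjusted p under 0.05, and Mtor lies farthest from 0 at -1.12.

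Among the 14 PI3K genes 1 rose and 3 fell, or 28.6% called against 8.1% of all genes. Those lower were the regulatory subunits Pik3r3 and Pik3r2 and the adaptor Pik3ap1, and the gene that rose was the class II enzyme Pik3c2b. Pik3r3 encodes p55-gamma, a small regulatory subunit of class IA PI3K. Its control arrays read 261, 282 and 240 and its Cre-ERT2 arrays 153, 157 and 138, which puts every Cre-ERT2 array below every control. The mean went from 261 ± 21.1 (SD, n = 3) to 150 ± 9.75 (SD, n = 3), or 57.3% of control. The log2 difference was -0.80 (SE 0.0800, limma adjusted p = 0.00207). The probe set was dimmer than the median of the array.

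Pik3r2 encodes p85-beta, a full-length regulatory subunit. It read 661, 643 and 612 in the controls and 532, 526 and 521 in Cre-ERT2 cells, a small step with tight Cre-ERT2 values. This amounts to -0.28 on the log2 scale (SE 0.0497, limma adjusted p = 0.0241), and dropping any single array but control array 3 ended the call (adjusted p from 0.0561 to 0.116). Pik3ap1 encodes BCAP, the adaptor that links the B-cell receptor to PI3K. Its control arrays gave 4192, 4444 and 4140 and its Cre-ERT2 arrays 3439, 3661 and 3500, again without overlap. It fell by 0.27 (SE 0.0530, limma adjusted p = 0.0349), and dropping any single array ended the call (adjusted p from 0.0682 to 0.149).

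Pik3c2b, a class II PI3K that makes PI3P and PI(3,4)P2 at inner membranes, was the risen gene of the group. Controls read 1293, 1322 and 1167, and Cre-ERT2 arrays 1737, 1766 and 1798. All 3 Cre-ERT2 arrays lay above all 3 controls, with a mean of 140% of control and a difference of 0.49 (SE 0.0615, limma adjusted p = 0.00543). Its class II relative Pik3c2a had a difference of 0.00 (95% interval -0.12 to 0.13).

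Of the 4 class I catalytic genes 0 passed limma's test, and 2 had an unadjusted p under 0.05. Pik3ca, Pik3cb, Pik3cd and Pik3cg, which encode p110-alpha, p110-beta, p110-delta and p110-gamma, had differences of 0.08, -0.13, 0.17 and -0.23. Pik3cd, the catalytic chain most used by lymphocytes, read 3554, 3478 and 3117 in controls and 3766, 3904 and 3731 in Cre-ERT2 cells. Those groups did not overlap, but the adjusted p was 0.242 (95% interval 0.02 to 0.32). Pik3r1, which encodes the main regulatory subunit p85-alpha, read 3132, 3222 and 3243 in controls and 3541, 3713 and 3534 in Cre-ERT2 cells. Its difference of 0.17 (95% interval 0.05 to 0.28) had a limma adjusted p of 0.114, and it was called with an intensity trend (0.0379) and among the brighter probe sets (0.0460).

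Pik3r5 and Pik3r6 encode the p101 and p84 partners of p110-gamma. Pik3r5 read 1038, 1077 and 962 in controls and 1201, 1188 and 1170 in Cre-ERT2 cells, without overlap, with a difference of 0.21 and a limma adjusted p of 0.101. It was called among the brighter probe sets (0.0446) and among the probe sets of 1 gene (0.0404). Pik3r6 had a difference of 0.04. The class III enzyme Pik3c3 (VPS34) and its partner Pik3r4 (VPS15), which serve autophagy and endosomes, had differences of 0.10 and 0.06 with overlapping groups.

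Of the 8 brakes 0 rose and 1, Phlpp1, fell, or 12.5% called against 8.1% of all genes. PHLPP1 is the phosphatase that removes the activating phosphate from the AKT tail. The 3 controls read 553, 577 and 469 and the Cre-ERT2 arrays 267, 353 and 320. The lowest control stood above the highest Cre-ERT2 array, and the mean fell to 58.7% of control. On the log2 scale Phlpp1 had the widest spread of the 8 called genes, with SDs of 0.16 in controls and 0.20 in Cre-ERT2 arrays, a difference of -0.77 and an SE of 0.124 (limma adjusted p = 0.0158). Dropping control array 1 (adjusted p = 0.0711) or Cre array 3 (0.0602) ended the call. Its paralog Phlpp2 had a difference of 0.01 (95% interval -0.12 to 0.15).

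Inpp5d encodes SHIP1, the PIP3 5-phosphatase that restrains B-cell receptor signalling. It read 5785, 5705 and 5446 in controls and 6001, 6090 and 5884 in Cre-ERT2 cells, a difference of 0.09 (95% interval -0.03 to 0.20). Inpp4b, which removes the next phosphate, had a difference of -0.14 (limma adjusted p = 0.292). Pik3ip1, a membrane protein that blocks class I PI3K, read 681, 745 and 664 in controls and 790, 824 and 790 in Cre-ERT2 cells. These groups did not overlap; the difference of 0.20 had an adjusted p of 0.129, and 0.0483 after a further quantile normalization. Tsc1 and Tsc2, the complex that switches off RHEB, had differences of 0.02 and 0.03, and Deptor, an inhibitor bound to mTOR, had -0.12.

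In the AKT-mTOR core Mtor fell and the other 10 measured genes did not pass. The called share of 9.09% was near the 8.1% of all genes. Mtor encodes the kinase shared by the growth complexes mTORC1 and mTORC2. Its controls read 3814, 3692 and 3365 and its Cre-ERT2 arrays 1597, 1753 and 1646. Every Cre-ERT2 array stood far below every control, at a mean of 1665 ± 79.7 (SD, n = 3) against 3624 ± 232 (SD, n = 3), or 46.0% of control. On the log2 scale that is -1.12 (SE 0.0673, limma adjusted p = 0.000248), and 132 genes with a call fell further. Mtor stayed called with each of the 6 arrays dropped in turn.

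The genes of 3 proteins that bind mTOR did not pass limma's test, and 0 of them had an unadjusted p under 0.05. Rptor, which defines mTORC1, had a difference of 0.08 (95% interval -0.08 to 0.24), and Rictor, which defines mTORC2, had 0.12 (-0.07 to 0.31). Mlst8, the subunit common to both, had 0.00 (-0.17 to 0.17), with controls at 1263, 1255 and 1104 and Cre-ERT2 arrays at 1179, 1261 and 1178. Of the mTORC2 partners outside the 37 genes, Prr5 and Prr5l encode the related proteins PROTOR-1 and PROTOR-2. Prr5l, a dim probe set, read 169, 206 and 193 in controls and 102, 92.4 and 110 in Cre-ERT2 cells. It fell by 0.89 (SE 0.0973, limma adjusted p = 0.00295). Prr5 rose by 0.31 (adjusted p = 0.0297), a call that ended when control array 1 or a single Cre array was dropped (0.0721 to 0.115).

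The 250 bases before the start of Mtor, the gene with the steepest fall, are shown in lower case from RefSeq on GRCm38.p6. The window was 54.4% G or C with 19 CpG sites, against medians of 52.4% and 6 over all promoter windows, each read over the same 250 bases.
Mtor promoter, chr4:148448332-148448581, plus strand: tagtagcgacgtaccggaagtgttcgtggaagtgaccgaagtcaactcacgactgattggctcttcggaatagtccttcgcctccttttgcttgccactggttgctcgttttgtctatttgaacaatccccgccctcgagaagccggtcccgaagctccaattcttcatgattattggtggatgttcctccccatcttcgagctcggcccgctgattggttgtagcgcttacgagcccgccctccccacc
The window was searched on both strands for a Sox core, given either by the letters ACAAAG or by the related form ACAATG, and for a FoxO core, given by the letters GTAAACA. None of these was found in the Mtor window.

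The AKT kinases and their direct partners did not pass the test. Akt1 had a difference of -0.04 (95% interval -0.18 to 0.10). Akt2 had -0.04 (-0.15 to 0.07), and a second probe set for it gave -0.08 (-0.19 to 0.03). Pdpk1, which encodes PDK1, read 4696, 4876 and 4890 in controls and 5159, 5089 and 5052 in Cre-ERT2 cells, a small difference of 0.08 without overlap (adjusted p = 0.455). Rheb, the GTPase that activates mTORC1, read 3905, 4049 and 4129 against 3845, 3576 and 3681, a difference of -0.12 (adjusted p = 0.301). Gsk3a and Gsk3b, kinases that AKT inhibits, both had -0.06, and Eif4ebp1, the translation repressor that mTORC1 phosphorylates, had -0.02. Over the 28 uncalled genes of the pathway the 95% intervals ran from -0.45 to 0.35.

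Of the 3 FoxO factors Foxo1 fell and Foxo3 rose, or 66.7% called against 8.1% of all genes, a share that rests on 3 genes. Foxo1, the family member that pre-B cells depend on, read 3030, 3090 and 2824 in controls and 2023, 2158 and 2101 in Cre-ERT2 cells. It fell to 70.2% of control, by 0.51 on the log2 scale (SE 0.0562, limma adjusted p = 0.00317), and stayed called with each array dropped in turn. Foxo3 read 1000, 1015 and 915 in controls and 1268, 1306 and 1264 in Cre-ERT2 cells. It rose to 131% of control, by 0.39 (SE 0.0568, limma adjusted p = 0.0102), but missed the threshold with Cre array 2 (0.0542) or Cre array 3 (0.0515) dropped. Foxo4 read 484.5, 465 and 453 in controls and 500, 517 and 490 in Cre-ERT2 cells, higher in every Cre-ERT2 array than in any control but not called (0.10, adjusted p = 0.386).

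**Figure D2:**
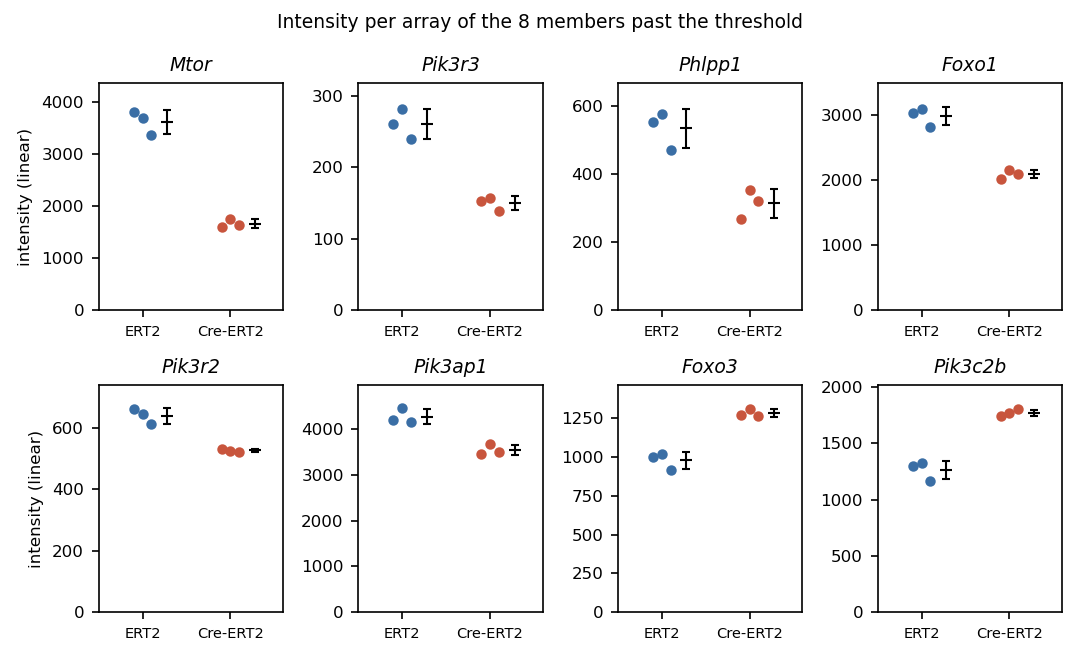
Intensity per array on a linear scale from 0 for the 8 called genes; dots are arrays, and bars show the mean and SD of 3 arrays. In each panel the ERT2 and Cre-ERT2 dots do not overlap, and Mtor goes from between 3365 and 3814 to between 1597 and 1753.

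Because these promoters belong to paralogs with opposite changes, the 250 bases before each start are set side by side, with any match to the Sox and FoxO cores on either strand in capitals (RefSeq, GRCm38.p6).
Foxo1 promoter, chr3:52268087-52268336, plus strand: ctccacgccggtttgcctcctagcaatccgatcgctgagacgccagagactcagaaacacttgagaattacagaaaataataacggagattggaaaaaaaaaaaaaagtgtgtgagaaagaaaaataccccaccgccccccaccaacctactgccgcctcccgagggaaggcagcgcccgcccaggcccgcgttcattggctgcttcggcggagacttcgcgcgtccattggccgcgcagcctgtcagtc
Foxo3 promoter, chr10:42276696-42276945, minus strand: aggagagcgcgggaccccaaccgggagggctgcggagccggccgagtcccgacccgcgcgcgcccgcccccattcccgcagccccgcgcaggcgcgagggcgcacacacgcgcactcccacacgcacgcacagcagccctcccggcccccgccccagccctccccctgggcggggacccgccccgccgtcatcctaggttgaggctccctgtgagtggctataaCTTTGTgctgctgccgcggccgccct
Foxo3 held 1 match, ACAAAG on the opposite strand, beginning 26 bases before the start, and Foxo1 held none. The Foxo3 window was 76.4% G or C with 31 CpG sites, and that of Foxo1 56.0% with 20. Over all 32851 windows the core ACAAAG was found in 16.5%, the form ACAATG in 10.7% and the FoxO core in 3.17%; the last letters of the FoxO core are the first of either Sox core, so these matches can overlap. By gene, 9 of the 32 pathway genes with a window (28.1%) held a Sox core of either form, against 28.2% of all genes, a share near that background.

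Differences between paralogs or rival partners within each array set aside what an array shares across probe sets. In 5 pairs, Foxo3 minus Foxo1 went up by 0.90 and Pik3r1 minus Pik3r3 by 0.97, without overlap of the groups. On the log2 scale, Foxo3 minus Foxo1 lay between -1.62 and -1.60 in controls and between -0.73 and -0.67 in Cre-ERT2 cells. Its SD was 0.013 in controls and 0.032 in Cre-ERT2 cells, and the exact two-sided permutation test gave p = 0.1, the smallest that 3 against 3 allows (0.25 adjusted over the pairs). For Pik3r1 minus Pik3r3 the exact permutation test also gave p = 0.1 (adjusted 0.25). The shifts of Pik3cd minus Pik3ca, Akt2 minus Akt1 and Rictor minus Rptor were 0.09, 0.00 and 0.04, with exact permutation p of 0.3, 1 and 0.7. These values show unequal change between probe sets and say nothing of which paralog is more abundant.

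**Figure D3:**
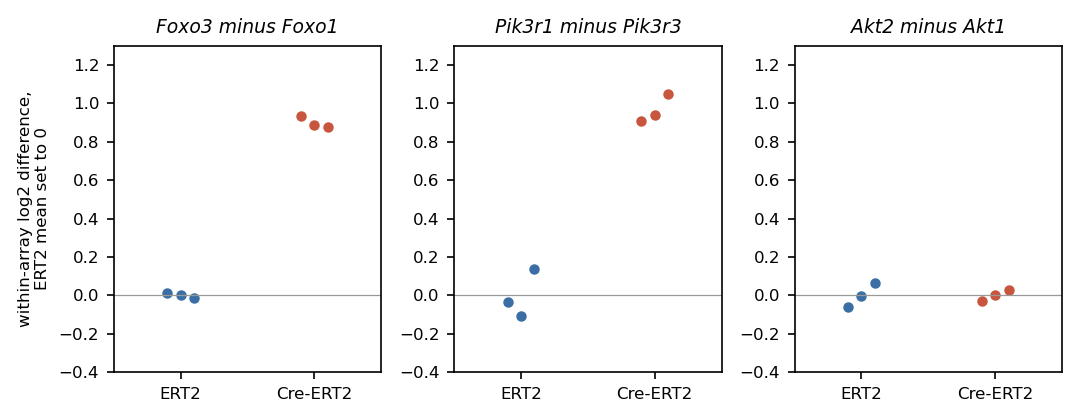
Within-array difference of log2(intensity + 1) between paralogs, with the mean of the ERT2 arrays set to 0 on the vertical axis; each dot is an array. Foxo3 minus Foxo1 and Pik3r1 minus Pik3r3 rose by 0.90 and 0.97, whereas Akt2 minus Akt1 differed by 0.00.

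The nearest measured gene on each side of the 8 called genes, in the gene order of GRCm38.p6, was read as a check of the region. Of these 16 neighbours 2 passed, where 8.1% of all genes did, and the other 14 had differences from -0.13 to 0.16. The genes beside Mtor, Foxo1, Foxo3, Pik3r3, Pik3ap1 and Pik3c2b were all among those 14, but both neighbours of Mtor and 1 each of Foxo3 and Pik3r3 were dimmer than the median probe set. Ifi30, a lysosomal thiol reductase beside Pik3r2, fell by 1.73, and Bcl2, the survival gene beside Phlpp1, rose by 0.25, against the direction of Phlpp1. Both were named after their values were seen. Dropping any single array but control array 2 ended the call of Bcl2 (limma adjusted p from 0.0945 to 0.148).

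Genes around the pathway were read from 6 lists, each set against the 8.1% of all genes called and their median of 0.02. The called share was 28.6% for upstream receptors and adaptors, 23.5% for phosphatases and AKT inhibitors and 25% for class II and III partners. It was 27.8% for mTOR partners and AGC kinases, 10.8% for inputs to mTORC1 and 26.7% for FoxO targets. Upstream of PI3K 2 of 14 receptors and adaptors rose and 2 fell, with a median of -0.08. Irs1 and Irs2, the docking proteins of insulin and IGF receptors, went opposite ways. Irs1 read 348, 371 and 352 in controls and 548, 594 and 529 in Cre-ERT2 cells and rose by 0.64 (SE 0.0615, limma adjusted p = 0.00171). Irs2 read 599, 581 and 598 against 472, 463 and 448 and fell by 0.36 (adjusted p = 0.00604). Il7r, which feeds PI3K and STAT5, fell by 0.93, and the cytokine receptor Flt3 rose by 0.34. Dropping any single array ended the call of Flt3 (adjusted p from 0.0516 to 0.152) and so left 1 gene higher, as did cyclic loess (0.0513) and median centring (0.0528).

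Of 17 further phosphoinositide phosphatases and AKT inhibitors 3 rose and 1 fell, with a median of 0.09. Phlda3, whose PH domain competes with AKT for lipids, read 564, 580 and 476 in controls and 1162, 1106 and 1043 in Cre-ERT2 cells and rose by 1.04 (SE 0.0888, limma adjusted p = 0.00105). Its relative Phlda1 rose by 0.49, and Mtmr1, a myotubularin that removes the 3-phosphate, by 0.47. Inppl1, which encodes SHIP2, the paralog of SHIP1, read 1728, 1684 and 1605 against 1321, 1356 and 1331 and fell by 0.32 (limma adjusted p = 0.0124). Its call ended when control array 1 or a single Cre array was dropped (0.0537 to 0.0725), and then 0 were lower. The number lower was 4 after a further quantile normalization. Among 8 partners of the class II and III enzymes Uvrag, a subunit of an endosomal VPS34 complex, rose by 0.26 and Vac14, a scaffold of the PIKfyve kinase, by 0.23; 0 fell. Dropping any single array but control array 2 left 0 higher. With that array dropped 2 were higher, Uvrag and a further gene of the list, while Vac14 had an adjusted p of 0.0561. Median centring put Vac14 at 0.0510.

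Among 18 partners of the mTOR complexes and AGC kinases 4 rose and 1 fell, with a median of 0.00. Grb10, an adaptor that mTORC1 stabilises and that damps insulin receptor signalling, read 292, 282 and 306 in controls and 574, 596 and 543 in Cre-ERT2 cells. It rose by 0.96 (SE 0.0584, limma adjusted p = 0.000261), and the groups stood well apart. Sgk1, a dim probe set, and Sgk3, kinases related to AKT that phosphorylate FoxO factors, rose by 0.36 and 0.31. The call of Sgk1 ended with control array 1 dropped (0.0587), and that of Sgk3 with any array but control array 2 dropped (0.0559 to 0.0908). With control array 1 dropped 1 gene was higher, and with a single Cre array dropped 2 were.

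Of 37 genes that carry amino acid, energy and stress inputs to mTORC1, 2 rose and 2 fell, with a median of 0.04. The called share of 10.8% was near the 8.1% of all genes. Rragd, a Rag GTPase that brings mTORC1 to lysosomes, read 1707, 1741 and 1653 in controls and 1033, 1113 and 1108 in Cre-ERT2 cells and fell by 0.65 (SE 0.0529, limma adjusted p = 0.000858). The AMPK subunit Prkag2 fell by 0.27, and the mTORC1 inhibitors Sesn2 and Ddit4 rose by 0.50 and 0.41. Dropping any single array but control array 3 ended the call of Prkag2 (0.0789 to 0.167) and left 1 lower. The call of Sesn2 ended when control array 3, Cre array 1 or Cre array 2 was dropped (0.0506 to 0.0695), and that of Ddit4 when any array but control array 1 was dropped (0.0643 to 0.119). With Cre array 1 or 2 dropped 0 were higher, and with control array 2, control array 3 or Cre array 3 dropped 1 was.

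Of 30 known FoxO targets 1 rose and 7 fell, with a median of -0.08. Rag2 and Rag1, which cut immunoglobulin gene segments, fell by 1.35 and 0.89, and Il7r and Irs2 belong to this list as well. S1pr1, the sphingosine 1-phosphate receptor, read 258, 260 and 263 in controls and 177, 141 and 156 in Cre-ERT2 cells. It fell by 0.73 (SE 0.0848, limma adjusted p = 0.00405), and its probe set was dimmer than the median. Cited2, a transcriptional co-regulator, read 7574, 7358 and 7649 against 5686, 5804 and 5652 and fell by 0.40 (adjusted p = 0.00349). Cat, the catalase, and Ccr7, a homing receptor, were named after their values were seen. Cat fell by 0.37, and Ccr7 rose by 0.34, a call that ended when control array 2 or a single Cre array was dropped (0.0502 to 0.0903), leaving 0 higher. The number lower was 7 with each array dropped in turn. Whether the targets followed Foxo1, Foxo3 or neither was not tested.

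**Figure D4:**
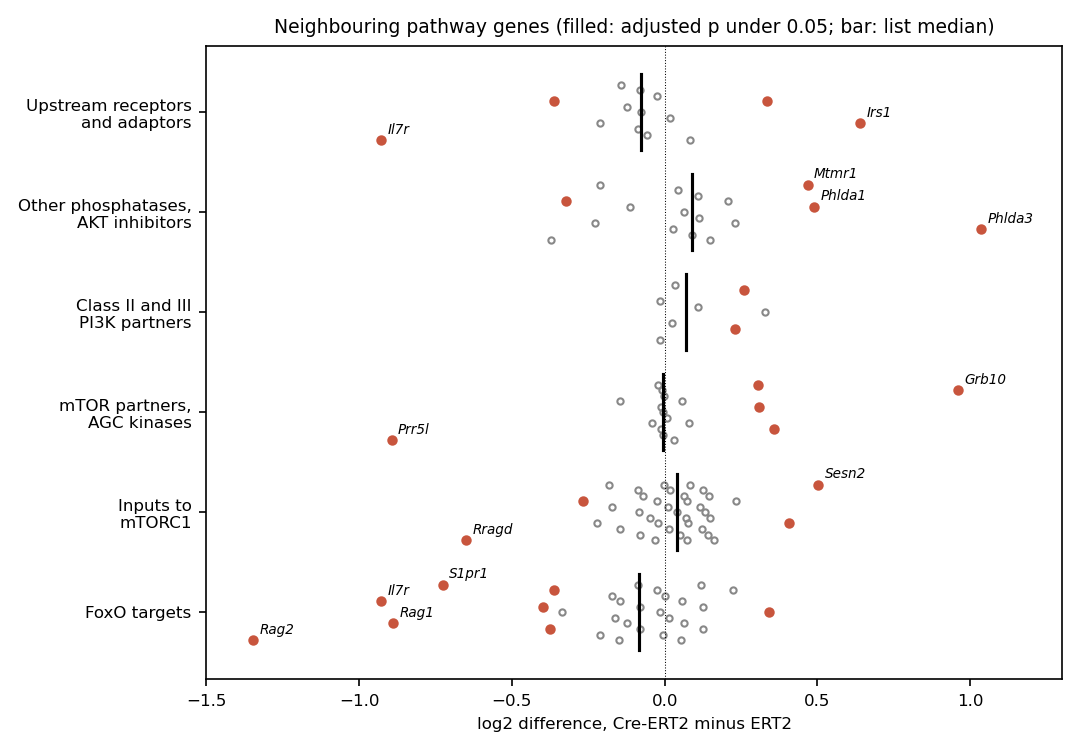
Log2 difference of Cre-ERT2 minus ERT2 cells on the horizontal axis for the genes of 6 lists around the pathway; filled circles passed adjusted p under 0.05, open circles did not, and bars mark list medians, which lie between -0.08 and 0.09. Labelled are called genes with a difference beyond 0.45, with Phlda3 highest at 1.04 and Rag2 lowest at -1.35.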

How the data were processed

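Total RNA of 6 samples was biotin-labelled for Affymetrix arrays, per the labels. The authors deposited 1 intensity per probe set and array, made with RMA (background correction, quantile normalization, probe summary), as the submitters' processing notes state. No genome build or software version was given in the sources used here. The values, from 6.27 to 26714, are on a linear scale, and quantile normalization would hide a shift of all genes.

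All 35556 probe sets were fitted with limma 3.58.1 in R 4.3.3 (lmFit, eBayes without trend, no covariates, pseudocount 1, Benjamini-Hochberg adjustment, threshold 0.05); every adjusted p-value is from limma. The probe table names 1 gene for 21789 probe sets, several for 1621 and none for 12146. The script was tested on simulated data.

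All 37 genes are named, every called one with its array values, and of each list up to 6 called genes with the smallest p, with Cat and Ccr7 added after their values were seen. Members, lists and tests were chosen with earlier results of these data known, Rag1, Rag2, Il7r and Phlda3 among them, so no list is independent evidence of its direction. Eif4ebp3 was not analysed here.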

Additional observations from a re-analysis of the deposited data

How the results depend on the processing

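Alternatives were an intensity trend, the brighter probe sets (those above the median), a further quantile normalization, cyclic loess, median centring, a pseudocount of 16, the replicate number as a block, probe sets of 1 gene only, the mean over probe sets of a gene, and each array left out in turn. Those for the list counts were added after seeing the data. Mtor, Pik3r3, Pik3c2b and Foxo1 kept their calls under every alternative run on them, with Mtor between -1.17 and -1.08. Of the scalings, cyclic loess moved the median of all genes most, by -0.0241, from 0.0215 to -0.00266. The 6 arrays limit the precision, and RMA intensities carry no detection call, so dim genes such as Pik3r3 and Prr5l have no stated background.

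Without single arrays the probe sets higher ranged from 606 to 1319 (1143 with all), those lower from 654 to 883 (1009 with all), pathway genes higher from 1 to 2 and lower from 3 to 5. Among the brighter probe sets 4 pathway genes were higher. List counts without single arrays ranged from 0 to 2 for inputs to mTORC1 higher and 1 to 2 lower, 0 to 2 for class II and III partners higher, 0 to 1 for FoxO targets higher, 1 to 4 for mTOR partners higher, 0 to 1 for phosphatases lower, and 1 to 1 for upstream receptors higher. Phosphatases lower numbered 3 among the brighter probe sets and under cyclic loess, 4 after a further quantile normalization and with probe sets of 1 gene, and 2 with the pseudocount of 16. FoxO targets higher numbered 2 among the brighter probe sets and with probe sets of 1 gene. Class II and III partners higher numbered 1 under median centring, and upstream receptors higher 1 under cyclic loess and median centring. Prr5l was not among the brighter probe sets, which left 0 mTOR partners lower.

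Same-numbered samples did not deviate together throughout (correlations of 0.20, 0.34 and -0.049 for numbers 1, 2 and 3), so the numbers were not taken as pairs. In the 36 pathway genes, though, number 2 was most often the highest array of both groups, for 23 genes in controls and 25 in Cre-ERT2 cells. With the replicate block 959 probe sets were higher and 877 lower, pathway genes 2 and 4 as Pik3ap1 (0.0553) and Pik3r2 (0.0565) missed the threshold, inputs to mTORC1 lower 1 (Prkag2 had 0.0588) and class II and III partners higher 1. That 1 was Atg14 (0.0460, against 0.0629 without the block), while Uvrag (0.0677) and Vac14 (0.0764) missed the threshold, as did Prr5 (0.0564) and Bcl2 (0.0704). No other call of a gene in the pathway or its 6 lists changed with the block.

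Differences near 0 changed sign without a call. Akt2 minus Akt1 was -0.00173 under cyclic loess, -0.0191 with the mean over probe sets, and from -0.0306 to 0.0332 without single arrays. Rictor minus Rptor ranged from -0.0165 to 0.0788 without single arrays. Under a further quantile normalization and cyclic loess the differences were -0.0369 and -0.0354 for Mlst8, -0.0211 and -0.0222 for Phlpp2, -0.0264 and -0.0235 for Pik3c2a, -0.0109 and -0.0141 for Tsc1. Pik3r6 was -0.000999 under quantile normalization, and Tsc2 -0.00515 under cyclic loess. Under median centring Mlst8 was -0.0109 and Pik3c2a -0.00742. Without single arrays Eif4ebp1 ranged from -0.0617 to 0.00943, Mlst8 ranged from -0.0632 to 0.0344, Phlpp2 ranged from -0.0284 to 0.0475, Pik3c2a ranged from -0.0157 to 0.0384, Tsc1 ranged from -0.034 to 0.0581, Tsc2 ranged from -0.0337 to 0.0692.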
